A study of Mus musculus with 282 samples.

Results

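The genes described here are 28 named genes of cholesterol synthesis, sterol sensing and sterol uptake, among 15907 gene symbols measured in mouse liver by 3′ mRNA sequencing. They were taken by name: the mevalonate and sterol enzymes Acat2, Hmgcs1, Mvk, Pmvk, Mvd, Idi1, Fdps, Fdft1, Sqle, Lss, Cyp51, Tm7sf2, Msmo1, Nsdhl, Hsd17b7, Ebp, Sc5d and Dhcr7, the regulators Srebf2, Insig1, Insig2 and Scap, and the related genes Stard4, Mylip, Aacs, Ggps1, Lbr and Tmem97. All 28 passed the filter of a mean of 1 RPM (reads scaled to a library of 1000000) in the first of the 2 sets of libraries, and 27 in the second, where Idi1 averaged 0.828 RPM.

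All animals were male C57BL/6J mice, caged singly under a light and dark cycle, and every library came from the lateral lobe of 1 liver. Times are zeitgeber times (ZT), in hours after lights on. Wild-type mice on an arrhythmic feeding schedule received AZD8055, an inhibitor of the mTOR kinase, at dawn or at dusk, or no injection. Other wild-type mice without injection fed freely (ad libitum) or at night only. Whole-body Bmal1 knockout mice, which lack a core component of the circadian clock in every tissue, and wild-type mice were all fed at night and received rapamycin, an inhibitor of mTOR complex 1 (mTORC1), its vehicle, or no injection. Mice lacking Raptor (RPKO) or Tsc1 (TSKO) in the liver and their Albumin-Cre controls were fed at night without injection. Raptor is a subunit of mTORC1 and TSC1 restrains that complex, and Albumin-Cre deletes in hepatocytes. These 13 arms make up the first set, with 3 libraries at each of ZT 2, 6, 10, 14, 18 and 22. A second set held wild-type mice only, with 4 libraries at each of ZT 4, 10, 16 and 22. They were fed arrhythmically and given AZD8055 at dusk plus tunicamycin, fed arrhythmically and given tunicamycin, or fed at night and given tunicamycin. Tunicamycin inhibits protein glycosylation and stresses the endoplasmic reticulum. No arm received the vehicle of AZD8055, so injection and drug cannot be told apart in the AZD8055 comparisons. Each AZD8055 arm was dosed at 1 time of day, so time of day and time since dosing cannot be told apart within it.

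Cholesterol is built from acetyl-CoA through mevalonate, isoprenoids, squalene and lanosterol. The transcription factor SREBP2, encoded by Srebf2, switches on most genes of this route. When sterols are scarce, the escort protein SCAP carries SREBP2 from the endoplasmic reticulum to the Golgi, where proteases release its active part, and when sterols are plentiful the INSIG proteins hold SCAP back. Insig1 is itself a target of SREBP2, whereas Insig2 is transcribed separately and is known in liver for its response to feeding and the clock. mTORC1 is known to favour SREBP processing.

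The promoters of 3 members are shown because the results below turn on them: an enzyme of the route, an INSIG gene known as an SREBP2 target, and an INSIG gene with a rhythm of its own. Each stretch runs 5′ to 3′ over 250 bases before and 50 bases after the annotated start, from RefSeq on GRCm38.p6. Hmgcs1, which encodes HMG-CoA synthase near the head of the route, lies on the plus strand at chr13:119690101-119690400. Insig1 lies on the plus strand at chr5:28071162-28071461, and the first of 3 listed starts of Insig2 lies on the minus strand at chr1:121332540-121332839. Capitals mark a match to a sterol regulatory element (TCACNCCAC), a CCAAT box or an E-box (CACGTG), each searched on both strands.
Hmgcs1: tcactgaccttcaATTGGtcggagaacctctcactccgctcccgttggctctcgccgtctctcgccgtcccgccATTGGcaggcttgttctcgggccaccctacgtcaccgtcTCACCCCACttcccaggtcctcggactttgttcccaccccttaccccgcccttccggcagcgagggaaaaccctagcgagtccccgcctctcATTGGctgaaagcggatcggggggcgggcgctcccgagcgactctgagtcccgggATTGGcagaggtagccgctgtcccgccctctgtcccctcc
Insig1: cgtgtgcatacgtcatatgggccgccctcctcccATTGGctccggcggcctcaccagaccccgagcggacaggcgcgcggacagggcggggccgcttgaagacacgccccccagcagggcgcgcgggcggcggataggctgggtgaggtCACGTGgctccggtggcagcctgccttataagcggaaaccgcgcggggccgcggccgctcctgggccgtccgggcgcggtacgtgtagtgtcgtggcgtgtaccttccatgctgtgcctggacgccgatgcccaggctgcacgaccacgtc
Insig2: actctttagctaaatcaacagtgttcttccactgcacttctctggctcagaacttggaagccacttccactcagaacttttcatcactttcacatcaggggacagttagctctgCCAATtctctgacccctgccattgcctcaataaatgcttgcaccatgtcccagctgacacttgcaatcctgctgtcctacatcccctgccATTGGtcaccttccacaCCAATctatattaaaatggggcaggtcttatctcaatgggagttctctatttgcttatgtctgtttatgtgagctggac
The Hmgcs1 stretch held 1 sterol regulatory element match and 4 CCAAT boxes. The Insig1 stretch held 1 CCAAT box and 1 E-box, the Insig2 stretch shown held 3 CCAAT boxes, and the other Insig2 starts held none of the motifs. Promoters of 24 members were matched by symbol. Sqle, Fdps, Fdft1 and Stard4 were the others. CCAAT boxes were present in 21 of the 24 members (87.5%), against 41.1% of the promoters of 27025 genes. E-boxes were present in 5 of 24, namely Hsd17b7, Sc5d, Dhcr7, Insig1 and Scap (20.8%), against 8.09%. The sterol regulatory element, in the exact letters searched, was present in Hmgcs1 only among the 24 (4.17%), against 1.44%. No match overlapped another in the stretches shown, and a match is only a match of letters.

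The libraries held 706440 to 14321171 reads in the first set (median 8511334) and 4853343 to 10057983 reads in the second (median 7706146). Levels are RPM after TMM scaling. They count tags at the 3′ end of a transcript and are compared only within a gene. Tsc1 had a median of 7.58 RPM over 18 TSKO libraries (3.72 to 11.2), against 15.0 RPM over 18 Albumin-Cre libraries (9.33 to 22.6). Rptor, which encodes Raptor, had a median of 4.51 RPM in RPKO livers (2.67 to 9.47), against 8.54 RPM in Albumin-Cre livers (6.73 to 11.6). The median of Arntl, the gene of BMAL1, did not set apart the livers labelled Bmal1 knockout, and the ranges overlapped. Medians were 10.7, 14.5 and 9.98 RPM with rapamycin, with vehicle and without injection, against 7.92, 6.36 and 11.9 RPM in the matching wild-type livers. The lowest libraries did differ, at 4.45, 7.47 and 6.08 RPM in these knockout arms, against 0.454, 0 and 0.176 RPM in the wild-type arms. The highest were 25.4, 18.7 and 17.0 RPM, against 16.4, 21.8 and 26.5 RPM. The sources used here do not say which part of Arntl is deleted. A 3′ tag does not check the deletion if it lies outside that part, and these arms are called by their labels. Gm43738 overlaps the 3′ end of Fdps on the same strand. How reads there were assigned is not given in the sources used here, so reads of either gene may be counted for the other. At their 3′ ends Mvd, Fdft1, Lss, Cyp51 and Lbr overlap a gene on the opposite strand. Unless stated otherwise, a difference is a log2 difference ± SE from limma over all genes of the set, and it is said to be called where the Benjamini-Hochberg adjusted p was under 0.05. A daily mean averages the times of an arm with equal weight. The amplitude of a 24 h cosine, from mean to peak, and its change between arms are also on the log2 scale. The labels name the libraries of a group biological replicates.

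The members followed each other unevenly. Over the 78 arm-by-time means of the first set, the log2 level of Msmo1 (sterol C4-methyl oxidase) had a Pearson r of 0.913 with the mean of the other 27 members, that of Dhcr7 (the last step to cholesterol) 0.893, and that of Hmgcs1 0.871. Ggps1 (geranylgeranyl diphosphate synthase, in a side branch), Aacs (acetoacetyl-CoA synthetase) and Mylip (a ubiquitin ligase acting on lipoprotein receptors) ran apart, with r of -0.296, -0.146 and -0.127. Of 378 pairs of members, 156 had an r over 0.5 and 72 an r below 0, with a median of 0.418. These values describe points that share arms and libraries and carry no test. The map of all members by arm and time shows most sterol enzymes high and low in the same columns, with Ggps1, Aacs, Mylip and Insig2 following columns of their own.

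**Figure D1:**
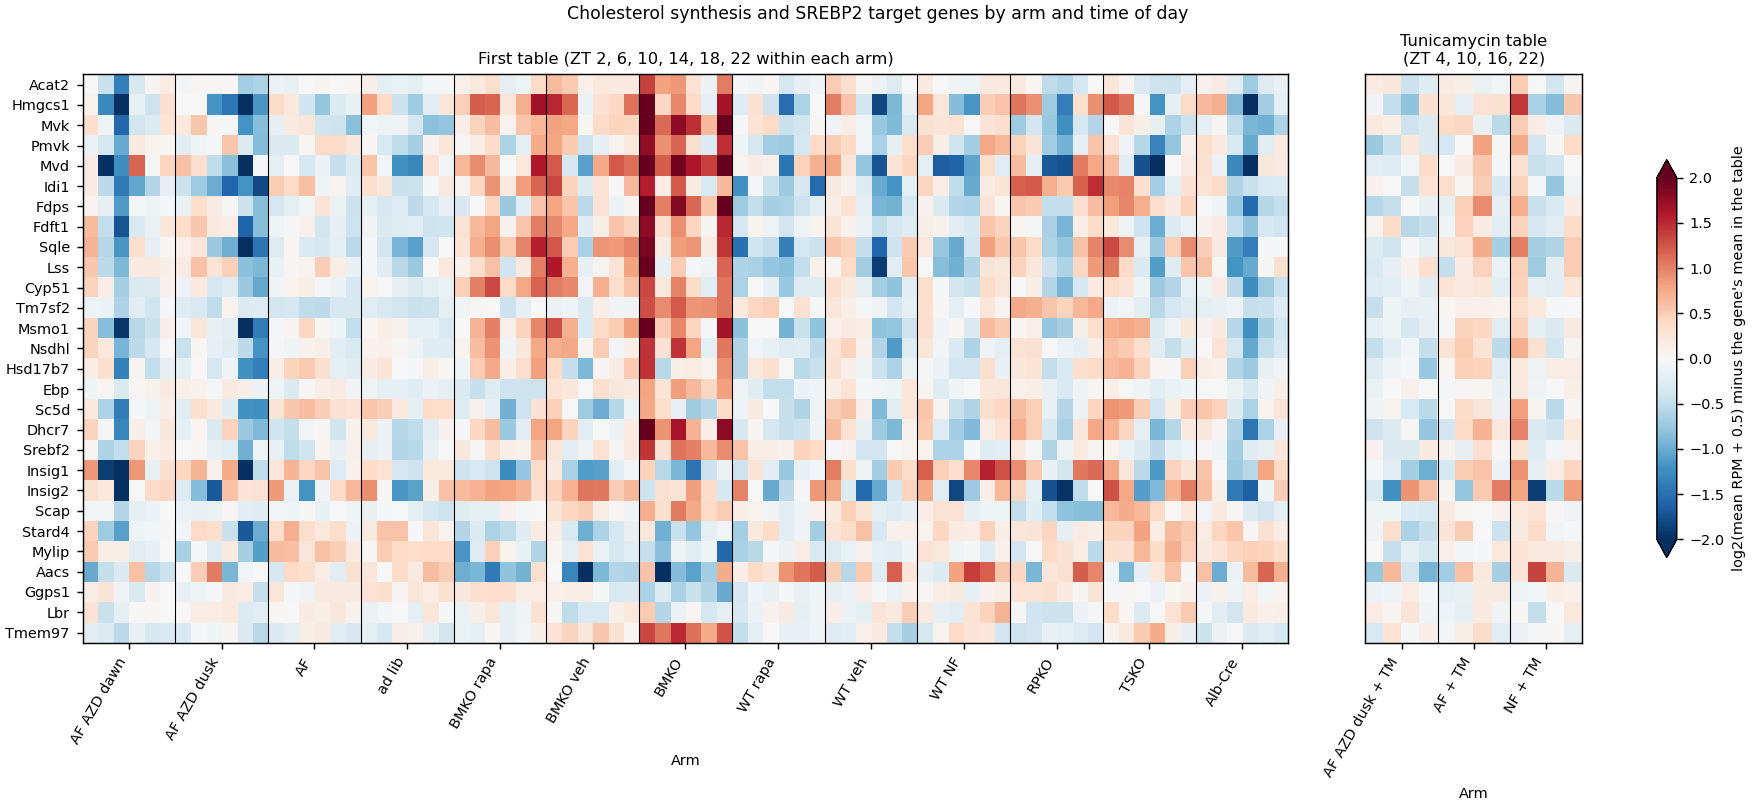
Mean level of each of the 28 genes (rows) at each sampling time of each arm (columns), as log2(mean RPM + 0.5) minus the gene's mean in its set; the colour scale ends at 2 log2 units either way, red for higher and blue for lower (AF, arrhythmic feeding; NF, night feeding; AZD, AZD8055; BMKO, Bmal1 knockout; rapa, rapamycin; veh, vehicle; TM, tunicamycin). Hmgcs1 and Msmo1 are deep blue at ZT 10 after AZD8055 at dawn and at ZT 18 after AZD8055 at dusk, while Insig2 in Bmal1 knockout livers has its high and low times exchanged relative to wild type.

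Most members had a called daily rhythm in 3 night-fed arms, the Albumin-Cre, uninjected wild-type and vehicle-injected wild-type livers. Most were also rhythmic in TSKO (21), RPKO (19) and night-fed tunicamycin livers (14 of 27 tested), described below. Albumin-Cre livers had 21 of 28 members with a called 24 h rhythm, against 23.3% of 12412 genes tested, and the peak times had a circular mean of ZT 1.82, shortly after lights on. Hmgcs1 had an amplitude of 1.32 ± 0.09 there, peaking at ZT 2.6 (SE, 18 libraries). Uninjected night-fed wild-type livers had 16 called members, against 21.8% of genes, with a mean peak at ZT 21.8, and 14 of these 16 peaked between ZT 18 and ZT 6. Vehicle-injected wild-type livers had 18, against 14.9% of genes, with a mean peak at ZT 3.38. Of these 18, 16 peaked between ZT 18 and ZT 6. The mean peaks of the uninjected and vehicle-injected arms lay apart within that span. No member had a called rhythm change between those arms. The median amplitude over all 28 members was 0.54 in Albumin-Cre, 0.42 in uninjected and 0.52 in vehicle-injected night-fed livers, against medians over all genes of 0.20, 0.22 and 0.22. Leaving out replicate 2 left 10 in uninjected and 5 in vehicle-injected livers.

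In freely fed livers 12 members were rhythmic, against 16.6% of genes, with a mean peak at ZT 1.30. Leaving out replicate 2 lowered that count to 1.

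Insig2 was rhythmic in more arms than any other member, with a called rhythm in 14 of 16 arms, fitted 1 arm at a time. Its amplitude was 1.17 ± 0.10 in night-fed wild-type livers, with a peak at ZT 23.1 (SE, 18 libraries). It was 0.88 in arrhythmically fed and 1.08 in freely fed livers, peaking at ZT 22.5 and ZT 0.0. The exceptions were Bmal1 knockout livers with vehicle (0.28) and with rapamycin (0.18). Pmvk (phosphomevalonate kinase) was rhythmic in 12 arms, and Hmgcs1, Mvd (mevalonate diphosphate decarboxylase), Lss (lanosterol synthase), Sc5d (sterol C5-desaturase) and Insig1 in 11 each. Tm7sf2, a sterol C14-reductase, and Ggps1 were called in no arm, and Ebp (a sterol isomerase) and Mylip in 1 each. The plot of amplitudes shows the spread of the members within each arm and which of them passed the test.

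**Figure D2:**
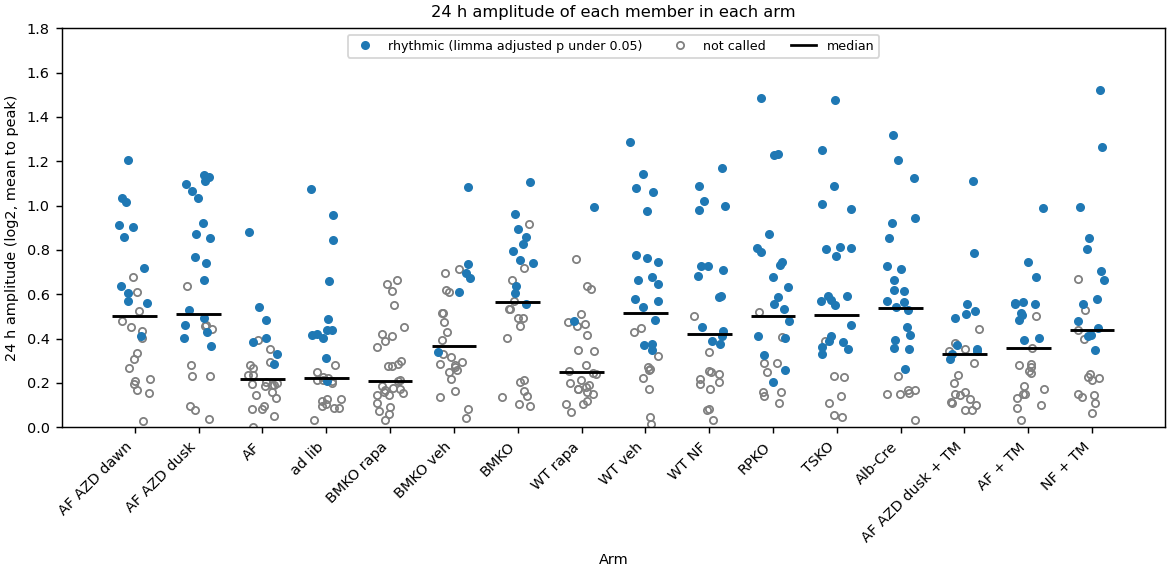
Amplitude of the 24 h cosine (log2, mean to peak) of each tested gene in each of the 16 arms; filled points had a called rhythm, open points did not, and the line is the median of the members. Medians are 0.50 to 0.54 in the Raptor knockout, Tsc1 knockout and Albumin-Cre arms, 0.22 in arrhythmically and freely fed wild-type arms, and 0.21 in Bmal1 knockout livers with rapamycin.

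The daily timing of sterol genes differed between arrhythmically fed and night-fed livers. The rhythm of 16 of 28 members was called as changed, where 4.61% of 12412 genes were called. The median size of the rhythm change was 0.57 over the 28 members and 0.20 over all genes. Insig1 had 72.6, 78.8 and 64.7 RPM at ZT 18 in arrhythmically fed livers, against 209, 283 and 263 RPM in night-fed livers. The groups did not overlap, and every night-fed library was above every arrhythmically fed one. The rhythm of Insig1 changed by 0.98 ± 0.14 (adjusted p = 9.27e-05).

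Sqle, squalene epoxidase and a rate-controlling enzyme of the sterol route, was nearly flat under arrhythmic feeding. It had 17.0, 17.9 and 29.2 RPM at ZT 18 in arrhythmically fed livers, against 36.4, 53.2 and 42.6 RPM in night-fed livers, and the groups did not overlap. Its amplitude was 0.13 in arrhythmically fed livers, where no rhythm was called, against 1.0 in night-fed livers with a peak at ZT 20.9. The change of rhythm was 1.12 ± 0.23 (adjusted p = 0.00623). Hmgcs1 kept a called rhythm under arrhythmic feeding, with an amplitude of 0.54 ± 0.10, against 1.02 ± 0.12 under night feeding. At ZT 2 it had 446, 438 and 402 RPM in arrhythmically fed livers, against 562, 611 and 523 RPM in night-fed livers. At ZT 14 it had 253, 174 and 150 RPM in arrhythmically fed livers, against 136, 140 and 160 RPM in night-fed livers, and the groups overlapped. Its own rhythm change was not called.

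Other called rhythm changes included 12 further enzymes from Mvk to Dhcr7, and Acat2 and Hmgcs1 at the head of the route were not called. Sc5d changed by 0.77 ± 0.10 (adjusted p = 2.14e-05), Msmo1 by 0.72 ± 0.12 (adjusted p = 0.000668) and Mvd by 1.25 ± 0.24 (adjusted p = 0.00359). Mvd had 24.4, 22.9 and 24.9 RPM at ZT 6 in arrhythmically fed livers, against 6.76, 5.71 and 9.64 RPM in night-fed livers, so that the groups did not overlap. Dhcr7, Lss, Hsd17b7, Pmvk, Cyp51, Lbr, Idi1, Aacs, Fdft1, Mvk and Fdps made up the rest. The count of 16 fell to 4 without replicate 1 and to 2 without replicate 2, and was 17 without replicate 3. Only 7 members had a called rhythm in arrhythmically fed livers alone, against 7.96% of genes, and 2 of the 7 peaked between ZT 18 and ZT 6. The 7 were 4, 4 and 3 without replicates 1, 2 and 3.

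Over the day, 7 members were higher and 5 lower under arrhythmic than under night feeding, where 24% of all genes were called higher and 20% lower. The members' shares were therefore near those of all genes. The median daily difference was -0.05 over the members and 0.02 over all genes. Insig1 differed by -0.68 ± 0.10 (adjusted p = 5.82e-07), Tm7sf2 by -0.47 ± 0.07 (adjusted p = 9.01e-07) and Mvk, mevalonate kinase, by -0.46 ± 0.09 (adjusted p = 5.77e-05). Higher members were Sc5d (0.37 ± 0.07), Mylip (0.51 ± 0.13), Lss (0.44 ± 0.12), Mvd (0.52 ± 0.17), Hsd17b7 (0.29), Idi1 (0.34) and Insig2 (0.28 ± 0.10). Aacs (-0.50) and Fdft1, squalene synthase (-0.26), completed the lower ones. Without replicate 2 the 12 calls were 4. Among genes outside the members, 9 of 14 tested fatty acid synthesis genes were higher and 0 lower, while the 11 genes of SREBP processing and sterol sensing had 1 higher and 2 lower.

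Freely fed livers also had lower Insig1. It had 86.0, 94.6 and 120 RPM at ZT 18 in freely fed livers, against 209, 283 and 263 RPM in night-fed livers, with no overlap, and its daily mean differed by -0.90 ± 0.10 (adjusted p = 5.63e-10). In all, 4 members were higher and 11 lower than under night feeding, where 28.6% of genes were called higher and 24.4% lower, with a median of -0.11 over the members and 0.02 over all genes. The higher ones were Sc5d, Mylip, Hsd17b7 and Mvd, and the lower ones included Mvk (-0.60), Fdft1 (-0.40), Tm7sf2 (-0.39), Scap (-0.23) and Lbr (-0.23). The 15 calls were 6 without replicate 2. Only the rhythm of Msmo1 was called as changed (0.55 ± 0.12, adjusted p = 0.0329), where 0.854% of genes were called and 13 members had an unadjusted p under 0.05. That count was 0 without replicate 1 or replicate 2 and 2 without replicate 3.

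Arrhythmic and free feeding were also compared with each other. In arrhythmically fed minus freely fed livers limma called 0 members in the daily mean, where 4.89% of genes were called higher and 3.48% lower, with 6 higher and 0 lower at an unadjusted p under 0.05 and 0 in edgeR. Without replicate 3 the count was 1. It called 0 rhythm changes, where 0.0483% of genes were called, with 11 members at an unadjusted p under 0.05 and 0 in edgeR. Arrhythmically and freely fed livers were each compared with the same night-fed libraries. Of the cell type markers, 3 of 6 endothelial markers were called lower in arrhythmically than in night-fed livers, with overlapping sums of 167 to 217 RPM against 164 to 248 RPM. Fewer cells of a type and less RNA per cell cannot be told apart in whole tissue, and their part in the result was not tested.

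**Figure D3:**
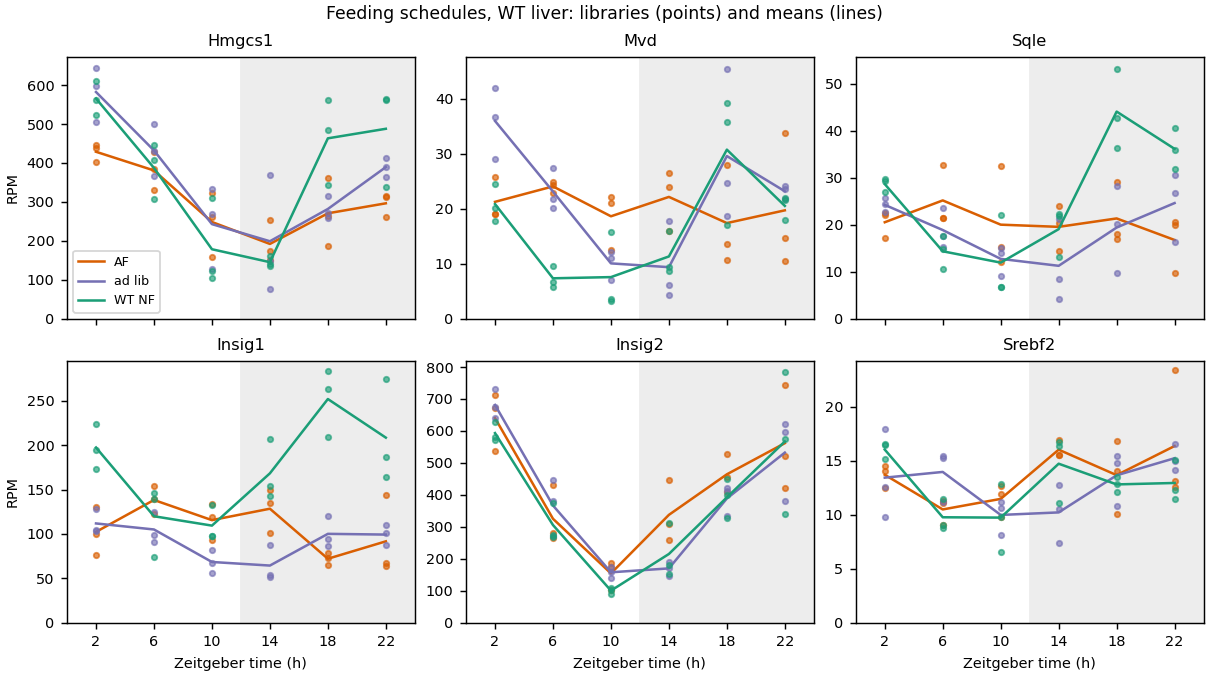
RPM of Hmgcs1, Mvd, Sqle, Insig1, Insig2 and Srebf2 by ZT in arrhythmically fed, freely fed and night-fed wild-type livers without injection; points are libraries, lines join means, and the dark phase is shaded. At ZT 18 the 3 night-fed libraries of Insig1 (209 to 283 RPM) lie above all arrhythmically fed (64.7 to 78.8 RPM) and freely fed (86.0 to 120 RPM) libraries.

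AZD8055 given at dawn was followed by low levels of sterol enzymes and Insig1 late in the light phase. At ZT 10 it left 16 of 28 members lower and 0 higher than in uninjected arrhythmically fed livers, where 12% of genes were called lower. The median difference at that time was -0.98 over the members and 0.00 over all genes. Insig1 had 14.5, 24.6 and 22.8 RPM after AZD8055 at dawn, against 93.7, 134 and 119 RPM without injection. The groups did not overlap, and the difference was -2.48 ± 0.34 (adjusted p = 5.87e-07). Msmo1 had 32.6, 46.2 and 46.0 RPM, against 243, 221 and 181 RPM, also without overlap (-2.36 ± 0.33, adjusted p = 1.03e-06).

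Enzymes early and late in the route were lower at ZT 10. Hmgcs1 had 55.3, 69.5 and 69.9 RPM after AZD8055 at dawn, against 324, 263 and 159 RPM without injection, with no overlap (-1.88 ± 0.37, adjusted p = 0.000247). Sc5d had 145, 161 and 177 RPM, against 591, 772 and 604 RPM (-2.02 ± 0.24, adjusted p = 6.78e-08). Stard4, which moves sterol between membranes, had 22.4, 31.1 and 22.9 RPM, against 61.0, 75.7 and 70.5 RPM (-1.43). In each of these the highest treated library lay below the lowest untreated one. Acat2, which makes acetoacetyl-CoA at the head of the route, fell by 1.36, Mvk by 1.85, Idi1 by 2.03, Fdft1 by 1.87 and Hsd17b7 by 1.85, and Scap fell by 0.61, all on the log2 scale. Sqle overlapped, with 8.78, 8.75 and 14.4 RPM against 32.6, 15.3 and 12.2 RPM.

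At ZT 6, 5 members were lower after AZD8055 at dawn, where 7.38% of genes were called lower. Insig1 had 15.9, 22.3 and 30.2 RPM after AZD8055 at dawn, against 154, 139 and 122 RPM without injection, and its difference was -2.62 ± 0.34 (adjusted p = 2.11e-07). Mvd (-2.24 ± 0.53), Hmgcs1 (-1.53), Stard4 (-1.46) and Sc5d (-1.16) were the others. At ZT 2, 14, 18 and 22 limma called 0 members, where 7.29%, 10.9%, 2.06% and 1.27% of genes were called. At an unadjusted p under 0.05, 2 were higher and 0 lower at ZT 2, 1 and 3 at ZT 14, 0 and 0 at ZT 18, and 1 and 0 at ZT 22, and edgeR called 0 except 1 higher at ZT 22. At ZT 18 the treated libraries were wide apart, with Hmgcs1 at 88.0 RPM in replicate 2 against 352 and 301 RPM in the others.

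Averaged over the day, 9 members were lower and 0 higher after AZD8055 at dawn (0 higher at an unadjusted p under 0.05 and 0 in edgeR), where 20.2% of genes were called lower and 20.9% higher. The median was -0.19 over the members and 0.01 over all genes. Idi1 (-0.90), Sc5d (-0.74 ± 0.10, adjusted p = 1.48e-07), Insig1 (-0.63), Msmo1 (-0.58), Stard4 (-0.57), Hmgcs1 (-0.51), Hsd17b7 (-0.44), Pmvk (-0.32) and Acat2 (-0.30) were called. The rhythm of 12 members changed, where 14.7% of genes were called, among them, by smallest p, Insig1 (1.6 ± 0.19, adjusted p = 5.02e-07), Acat2 (adjusted p = 4.5e-05), Msmo1 (1.22) and Mvk (1.08). That count was 4 without replicate 1 and 7 without replicate 3. Within the arm, 12 members were rhythmic, against 21% of genes, with a mean peak at ZT 21.1, and 11 of the 12 peaked between ZT 18 and ZT 6. The 12 were 4 without replicate 1, 20 without replicate 2 and 4 without replicate 3.

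AZD8055 given at dusk was followed by low sterol enzymes and Insig1 in the dark phase. At ZT 18, 15 members were lower and 0 higher than in uninjected arrhythmically fed livers, where 8.58% of genes were called lower, and the median was -0.76 over the members and 0.01 over all genes. Stard4 had 17.2, 20.4 and 12.3 RPM after AZD8055 at dusk, against 58.1, 66.9 and 83.9 RPM without injection (-2.05 ± 0.25, adjusted p = 1.27e-07). Hmgcs1 had 61.5, 53.9 and 52.1 RPM, against 263, 363 and 187 RPM (-2.22 ± 0.37, adjusted p = 3.71e-05). Msmo1 had 30.4, 24.0 and 38.8 RPM, against 147, 176 and 135 RPM (-2.29 ± 0.33, adjusted p = 2.92e-06). None of these groups overlapped.

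Insig1, Srebf2 and Sqle fell at the same time, while the regulators Insig2 and Scap were not called at ZT 18. Insig1 had 23.3, 18 and 12.8 RPM at ZT 18 after AZD8055 at dusk, against 72.6, 78.8 and 64.7 RPM without injection (-2.01 ± 0.34, adjusted p = 3.57e-05). Srebf2 had 7.23, 7.12 and 8.39 RPM, against 14.1, 16.8 and 10.1 RPM (-0.78 ± 0.24, adjusted p = 0.0168). Sqle, the squalene epoxidase gene, had 3.21, 5.07 and 6.76 RPM, against 17.0, 17.9 and 29.2 RPM (-2.0 ± 0.52, adjusted p = 0.00596). All treated libraries were below all untreated ones for these 3 genes. At ZT 22, 11 members were lower, where 9.18% of genes were called lower and the member median was -0.63. At ZT 14, 3 members (Idi1, Stard4 and Sc5d) were lower, where 8.58% of genes were. Insig2 was lower at ZT 2, with 400, 237 and 258 RPM against 672, 712 and 537 RPM (-1.13 ± 0.32, adjusted p = 0.0164), where 4.59% of genes were called lower. Idi1 was lower at ZT 10, where 1.6% of genes were. At ZT 6 limma called 0 members and 5.49% of genes, and edgeR 0 members, with 2 higher and 2 lower at an unadjusted p under 0.05. The 31 pairs of a member and a time called after AZD8055 at dusk were 9, 17 and 20 without replicates 1, 2 and 3.

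Over the day, 14 members were lower and 0 higher after AZD8055 at dusk, where 23.9% of genes were called lower and 26.8% higher, with a median of -0.21 over the members and 0.02 over all genes. Idi1 (-1.38), Mylip (-1.04), Hmgcs1 (-0.92 ± 0.15, adjusted p = 3.64e-06), Sc5d (-0.84 ± 0.10, adjusted p = 5.8e-09), Stard4 (-0.76), Hsd17b7 (-0.71), Msmo1 (-0.68), Sqle (-0.67) and Insig1 (-0.46) led. Insig2 (-0.38), Acat2, Cyp51, Ggps1 and Nsdhl were the others, and the 14 were 9 without replicate 1. A changed rhythm was called for 8 members, where 5.73% of genes were called, and the count was 2, 2 and 1 without replicates 1, 2 and 3. Within the arm, 18 members were rhythmic, against 19.5% of genes, with a mean peak at ZT 7.44, and 5 of the 18 peaked between ZT 18 and ZT 6. The count was 10 without replicate 1. In the dawn and dusk arms a called rhythm may follow time of day or time since dosing.

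Genes of neighbouring pathways were counted as well. Of 14 tested fatty acid synthesis genes, 8 were lower and 0 higher over the day after AZD8055 at dawn and 7 lower and 0 higher after AZD8055 at dusk, among them Acss2, Thrsp, Me1, Fads1, Fads2 and Scd1 in both. Of 9 genes of the isoprenoid branch, which leads from farnesyl diphosphate to dolichol, ubiquinone and protein prenylation, 5 were higher and 0 lower at either time of dosing, among them Dhdds, Fnta, Icmt and Nus1 in both. The 2 AZD8055 arms share the same uninjected libraries. Markers of other cells moved with both. Of 3 leukocyte markers tested, 2 were higher and 1 lower in each, with sums reaching 121 RPM after AZD8055 at dawn and 136 RPM after AZD8055 at dusk, against 5.62 to 16.9 RPM without injection. Of 6 endothelial markers, 3 were higher and 1 lower after dawn dosing and 3 higher and 2 lower after dusk dosing, with sums of 170.4 to 231.8 RPM and 167.5 to 295.0 RPM, against 166.9 to 217.3 RPM. Of 7 Kupffer cell markers, 1 and 2 were higher and 0 lower, with sums of 141.8 to 332.9 RPM and 141.9 to 311.6 RPM, against 139.5 to 251.6 RPM. Their part in the result was not tested.

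**Figure D4:**
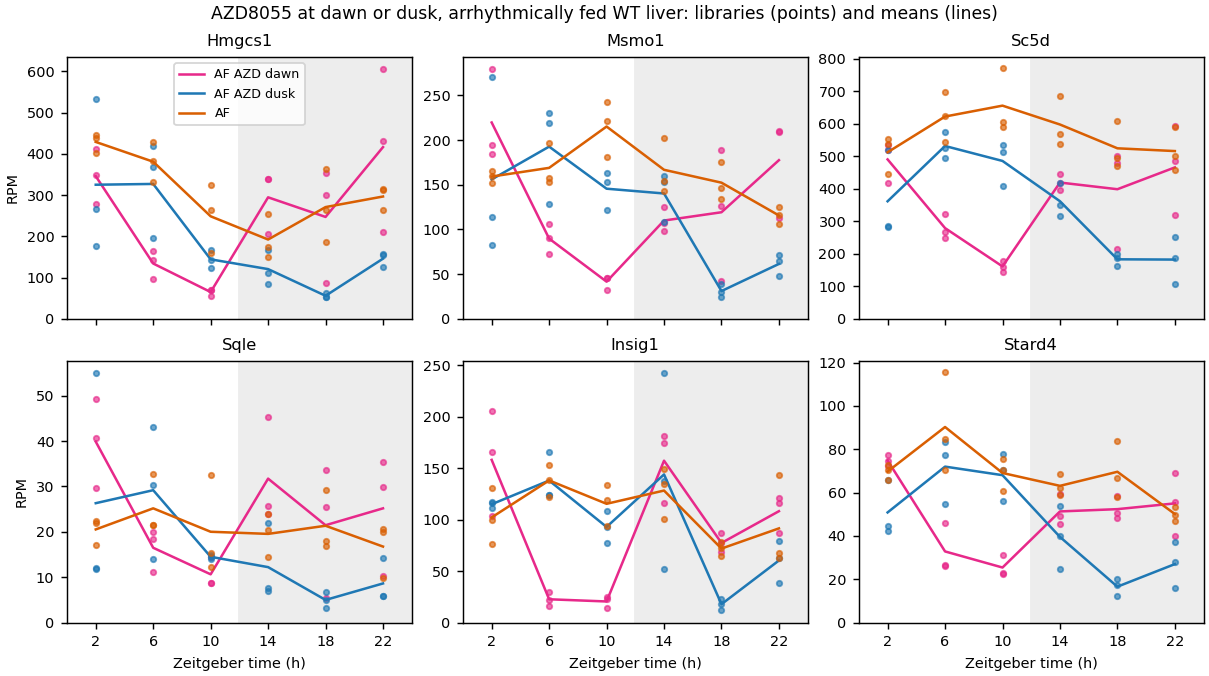
RPM of Hmgcs1, Msmo1, Sc5d, Sqle, Insig1 and Stard4 by ZT in arrhythmically fed livers after AZD8055 at dawn, after AZD8055 at dusk and without injection; points are libraries and lines join means. The dawn arm dips at ZT 6 to 10 and the dusk arm at ZT 18 to 22: Hmgcs1 lies at 55.3 to 69.9 RPM at ZT 10 in the dawn arm and at 52.1 to 61.5 RPM at ZT 18 in the dusk arm, against 159 to 324 RPM and 187 to 363 RPM without injection.

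Under tunicamycin, arrhythmic feeding also changed the rhythm of sterol genes. Arrhythmically fed minus night-fed livers with tunicamycin differed in the rhythm of 13 of 27 tested members, where 4.36% of 12261 genes were called. The median rhythm change was 0.55 over the members and 0.22 over all genes. Hmgcs1 had 212, 195, 175 and 163 RPM at ZT 4 in arrhythmically fed livers, against 314, 253, 494 and 648 RPM in night-fed livers. At ZT 16 it had 194, 188, 239 and 163 RPM, against 90.8, 59.3, 120 and 77.6 RPM. The groups did not overlap at either time, and their order turned between the times. The rhythm changed by 1.20 ± 0.14 (adjusted p = 1.04e-06).

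Dhcr7 also changed rhythm. It had 16.4, 15.5, 21.6 and 11.2 RPM at ZT 4 in arrhythmically fed livers with tunicamycin, against 41.4, 33.5, 45.1 and 50 RPM in night-fed livers with tunicamycin. At ZT 16 it had 30.9, 39.1, 39.0 and 29.0 RPM, against 15.9, 29.5, 10.2 and 8.22 RPM, where the highest night-fed library fell within the arrhythmically fed range. Its rhythm changed by 1.36 ± 0.21 (adjusted p = 0.000101). Sqle (1.47 ± 0.28), Fdps (1.35), Lss (1.13), Insig1 (1.09), Insig2 (1.05), Pmvk (1.04), Sc5d (0.84), Msmo1, Fdft1, Mvd and Hsd17b7 were also called. The 13 were 7 without replicate 3. In arrhythmically fed livers 12 members were rhythmic, against 7.49% of genes, with a mean peak at ZT 12.9, and 1 of the 12 peaked between ZT 18 and ZT 6. In night-fed livers 14 were, against 15% of genes, with a mean peak at ZT 1.95. The 12 were 7 without replicate 1, and the 14 were 8 without replicate 3 and 7 without replicate 4. Of the tested fatty acid synthesis genes, 8 of 14 changed rhythm in this comparison.

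The daily mean of 1 member, Aacs, was lower in arrhythmically than in night-fed livers with tunicamycin (-0.64 ± 0.16, adjusted p = 0.0421), where 0.245% of genes were called higher and 0.31% lower. Leaving out any replicate ended that call. No member was higher in limma or in edgeR, and 2 were higher at an unadjusted p under 0.05.

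Adding AZD8055 at dusk to tunicamycin in arrhythmically fed mice left 13 of 27 members lower over the day and 0 higher, where 4.67% of genes were called lower and 4.19% higher. The median was -0.28 over the members and -0.01 over all genes. At ZT 16 Hmgcs1 had 74.8, 89.6, 85.8 and 114 RPM with AZD8055 and tunicamycin, against 194, 188, 239 and 163 RPM with tunicamycin, and the groups did not overlap. Over the day its difference was -0.42. Hsd17b7, a sterol ketoreductase, differed by -0.49 ± 0.10 (adjusted p = 0.000739), and Insig1 (-0.63), Dhcr7 (-0.62), Fdps (-0.59), Sc5d (-0.34), Tm7sf2 (-0.28) and Scap (-0.27) were among the others. No member was higher at an unadjusted p under 0.05. The 13 were 6 without replicate 2 and 2 without replicate 3. For the rhythm limma called 0 members, where 0.0326% of genes were called, with 8 at an unadjusted p under 0.05 and 0 in edgeR. Within the arm given both agents 11 members were rhythmic, against 21.2% of genes, with peaks spread round the day (resultant length 0.042 of their circular mean). That count was 6 without replicate 4.

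Raptor knockout livers had higher levels of several sterol enzymes and lower Scap. Over the day 11 members were higher and 4 lower than in Albumin-Cre livers, where 19.4% of 12266 genes were called higher and 23.1% lower, with a median of 0.15 over the members. Tm7sf2 had 40.7 to 69.5 RPM over the 18 RPKO libraries, against 22.7 to 40.3 RPM over the 18 Albumin-Cre libraries. The ranges did not overlap, and the difference was 0.91 ± 0.07 (adjusted p = 1.7e-14). It was called at each of the 6 times, at 0.66 to 1.07. Idi1, isopentenyl diphosphate isomerase, had 7.41, 8.79 and 10.1 RPM at ZT 22 in RPKO livers, against 2.35, 2.45 and 1.93 RPM in Albumin-Cre livers. Those groups did not overlap either, and its daily mean differed by 1.19 ± 0.15 (adjusted p = 2.42e-08).

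The sterol sensing machinery moved in both directions in RPKO livers. Scap, the escort of SREBP, had 40.5, 44.0 and 47.2 RPM at ZT 22 in RPKO livers, against 71.5, 74.3 and 62.8 RPM in Albumin-Cre livers, and differed over the day by -0.52 ± 0.07 (adjusted p = 9.33e-08). Insig2 was lower (-0.37 ± 0.10, adjusted p = 0.00204) and Insig1 higher (0.40 ± 0.12, adjusted p = 0.00508). Higher enzymes were Fdps (0.72), Dhcr7 (0.61), Hmgcs1 (0.58), Sqle (0.47), Nsdhl (0.37), Lss (0.34), Hsd17b7 (0.28) and Ggps1 (0.23), and Mylip (-0.37) and Lbr (-0.20) were lower. At single times 18 pairs of a member and a time were called. At ZT 22, 5 members (Idi1, Dhcr7, Tm7sf2, Hmgcs1 and Fdps) were higher and 1 (Scap) lower, where 3.13% of genes were called higher and 6.53% lower. At ZT 14, 3 were higher and 2 lower, where 4.44% and 7.08% of genes were. At ZT 10, 2 were higher and 1 lower, where 4.92% and 7.34% were, and at ZT 18, 2 were higher, where 3.78% were. Tm7sf2 alone was called at ZT 2 and ZT 6, where 2.63% and 3.32% of genes were higher. The 18 pairs became 6 without replicate 2. Summed hepatocyte markers ran from 36259 to 76679 RPM in RPKO livers, against 62651 to 85551 RPM in Albumin-Cre livers, with overlap, and 2 of the 6 were called higher and 2 lower. Endothelial markers were lower for 3 of 6 with 1 higher (153.9 to 220.5 RPM in RPKO livers, against 164.8 to 236.9 RPM). Leukocyte markers were higher for 2 of 3 tested (8.7 to 22.3 RPM, against 6.7 to 14.1 RPM) and Kupffer cell markers for 2 of 7 (149.1 to 272.1 RPM, against 121.5 to 301.2 RPM). Their part in the result was not tested. For the rhythm limma called 0 members and 0% of genes, with 0 members at an unadjusted p under 0.05 and 0 in edgeR.

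Tsc1 knockout livers had higher levels of several sterol enzymes as well. Over the day 15 members were higher and 1 lower than in Albumin-Cre livers, where 18.7% of genes were called higher and 17.9% lower, and the median was 0.28 over the members and 0.00 over all genes. Fdps, farnesyl diphosphate synthase, had 106, 147 and 173 RPM at ZT 14 in TSKO livers, against 32.9, 43.4 and 38.0 RPM in Albumin-Cre livers. At ZT 10 it had 191, 233 and 136 RPM, against 51.5, 71.7 and 76.0 RPM. The groups did not overlap at either time, and the daily mean differed by 1.13 ± 0.13 (adjusted p = 4.3e-09). Insig2 (0.60 ± 0.10, adjusted p = 3.6e-06) and Scap (0.55 ± 0.07, adjusted p = 6.12e-08) were higher, as were Msmo1 (0.74), Sqle (0.73 ± 0.16), Hmgcs1 (0.63 ± 0.14), Hsd17b7 (0.59), Tmem97 (0.49), a sterol-regulated membrane protein, and Sc5d (0.34). Dhcr7, Mvk, Nsdhl, Stard4, Lbr and Idi1 were the other higher ones, and Pmvk was lower (-0.27).

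At single times, 12 pairs of a member and a time were called in TSKO livers. At ZT 10, 6 members were higher, where 4.61% of genes were called higher, led by Fdps (1.47), Msmo1 (1.27), Hsd17b7 (1.03) and Sc5d (0.80). At ZT 14, 4 were higher, where 3.07% of genes were, with Fdps at 1.87 ± 0.33 (adjusted p = 0.000186). Scap was higher at ZT 2 and Insig2 at ZT 18, where 2.39% and 2.76% of genes were. At ZT 6 and ZT 22 limma called 0 members and 6.11% and 3.38% of genes, with 5 and 6 members at an unadjusted p under 0.05 and 2 and 0 in edgeR. Without replicate 2 the 16 daily calls were 9 and the 12 pairs were 4. The rhythm changed for 0 members in limma, where 0.00815% of genes were called, with 2 at an unadjusted p under 0.05 and 0 in edgeR. Of 14 fatty acid synthesis genes, 3 were higher and 7 lower over the day.

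The 2 liver knockouts differed from each other at Scap and Insig2. Both knockouts share the Albumin-Cre libraries, so they were also set against each other directly. Scap had 40.5, 44.0 and 47.2 RPM at ZT 22 in RPKO livers, against 85.2, 92.8 and 97.7 RPM in TSKO livers, and its daily mean differed by -1.07 ± 0.07 (adjusted p = 9.25e-17). Insig2 differed by -0.97 ± 0.10 (adjusted p = 1.85e-11), Tmem97 by -0.54 and Lbr by -0.39, while Tm7sf2 differed by 0.91 and Idi1 by 0.79. In all, 6 members were higher and 11 lower in RPKO than in TSKO livers, where 26.8% of genes were called higher and 31.1% lower. The members' shares were therefore near those of all genes. Kupffer cell markers were higher for 5 of 7 (149.1 to 272.1 RPM in RPKO livers, against 97.2 to 248.3 RPM in TSKO livers) and stellate cell markers for 4 of 5 tested (232.2 to 358.3 RPM, against 197.6 to 286.9 RPM), and their part in the result was not tested. Members rhythmic within the arm numbered 19 in RPKO livers, against 17.5% of genes, and 21 in TSKO livers, against 24.3% of genes, with mean peaks at ZT 0.484 and ZT 2.76. In RPKO livers the count was 5 without replicate 2 and 11 without replicate 3, and in TSKO livers 11 without replicate 1 and 12 without replicate 2.

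Uninjected Bmal1 knockout livers had higher levels of most sterol enzymes and lower Insig1. Over the day 21 members were higher and 6 lower than in wild-type livers, where 34.3% of genes were called higher and 37.4% lower. The median was 0.66 over the members and -0.06 over all genes. Mvd had 314, 217 and 233 RPM at ZT 2 in knockout livers, against 17.8, 20.2 and 24.6 RPM in wild-type livers, with no overlap, and its daily mean differed by 2.87 ± 0.24 (adjusted p = 4.7e-18). Fdps had 755, 578 and 743 RPM at that time, against 101, 93.6 and 165 RPM, also with no overlap (1.68 ± 0.21 over the day, adjusted p = 6.77e-11). Srebf2, the gene of SREBP2 itself, ran from 7.36 to 52.4 RPM with a median of 28.3 RPM over 18 knockout libraries, against 6.57 to 16.7 RPM with a median of 12.6 RPM over 18 wild-type libraries. The ranges overlapped, and the daily difference was 1.13 ± 0.12 (adjusted p = 2.14e-13).

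Insig1 differed in uninjected Bmal1 knockout livers by -1.48 ± 0.13 (adjusted p = 1.09e-17), opposite to Dhcr7 (1.35), Mvk (1.34), Tmem97 (1.12 ± 0.12) and Tm7sf2 (0.97 ± 0.09). The other lower members were Aacs (-1.23), Ggps1 (-0.65), Stard4 (-0.63), Mylip (-0.51) and Lbr (-0.33), and Sc5d was the member not called. Summed hepatocyte markers lay at 24158 to 47820 RPM in uninjected knockout livers, against 64980 to 82677 RPM in wild-type livers, without overlap, with 1 of 6 markers called higher and 2 lower. Kupffer cell markers were lower for 5 of 7, endothelial markers for 4 of 6 with 1 higher, and stellate cell markers for 3 of 5 tested. Their part in the result was not tested.

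With vehicle, 9 of the 18 mevalonate and sterol enzymes were higher in the knockout and 1, Sc5d, was lower, as was Insig1. In Bmal1 knockout minus wild-type livers 11 members were higher and 5 lower, where 9.93% of genes were called higher and 11.8% lower, with medians of 0.25 over the members and -0.01 over all genes. Hmgcs1 differed by 1.0 ± 0.21 (adjusted p = 0.000131), and Lss (0.82), Sqle (0.81), Msmo1 (0.79), Mvk (0.76), Cyp51 (0.75), Idi1 (0.71), Fdft1 (0.54), Tmem97 (0.51) and Nsdhl (0.50) were higher too, as was Insig2. Aacs (-1.20 ± 0.20), Insig1 (-0.71), Stard4 (-0.64), Sc5d (-0.37) and Lbr (-0.25) were lower. Mvd, Fdps, Srebf2, Dhcr7 and Tm7sf2, which were higher in the knockout without injection, were not called with vehicle. The hepatocyte marker sums were 25435 to 62711 RPM in knockout livers with vehicle, against 59860 to 105168 RPM in wild-type livers with vehicle, which overlapped. Of 14 fatty acid synthesis genes 0 were higher and 10 lower.

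The rhythm of Insig2 differed between the Bmal1 genotypes with and without injection. It had 180, 320 and 301 RPM at ZT 2 in uninjected Bmal1 knockout livers, against 572, 580 and 628 RPM in wild-type livers. At ZT 14 it had 738, 561 and 603 RPM, against 311, 152 and 182 RPM. The groups did not overlap at either time, and their order was opposite. The amplitude was 0.56 ± 0.10 with a peak at ZT 13 in knockout livers, against 1.17 ± 0.10 with a peak at ZT 23.1 in wild-type livers. The rhythm changed by 1.68 ± 0.16 (adjusted p = 8.48e-12). With vehicle, Insig2 had 744, 648 and 846 RPM at ZT 10 in knockout livers, against 83.3, 133 and 148 RPM in wild-type livers, and its rhythm changed by 1.34 ± 0.16 (adjusted p = 2.03e-08) and its daily mean by 1.09 ± 0.12 (adjusted p = 1.36e-12).

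Few other members changed rhythm with the Bmal1 genotype. Without injection 4 of 28 were called, where 3.05% of genes were, namely Insig2, Aacs (1.56 ± 0.29, adjusted p = 0.000644), Insig1 (0.76, adjusted p = 0.0173) and Acat2 (0.59, adjusted p = 0.0263), and the count was 1 without replicate 2. With vehicle Insig2 alone was called, where 1.75% of genes were, and 3 members were without replicate 1. Within the uninjected knockout arm 11 members were rhythmic, against 5.6% of genes, with a mean peak at ZT 1.4. That count was 17 without replicate 1, 0 without replicate 2, 3 without replicate 3 and 17 without the libraries under 3000000 reads. With vehicle 6 were, against 5.49% of genes, and 10, 0 and 0 without replicates 1, 2 and 3. With the replicate number as a block the 6 were 14.

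**Figure D5:**
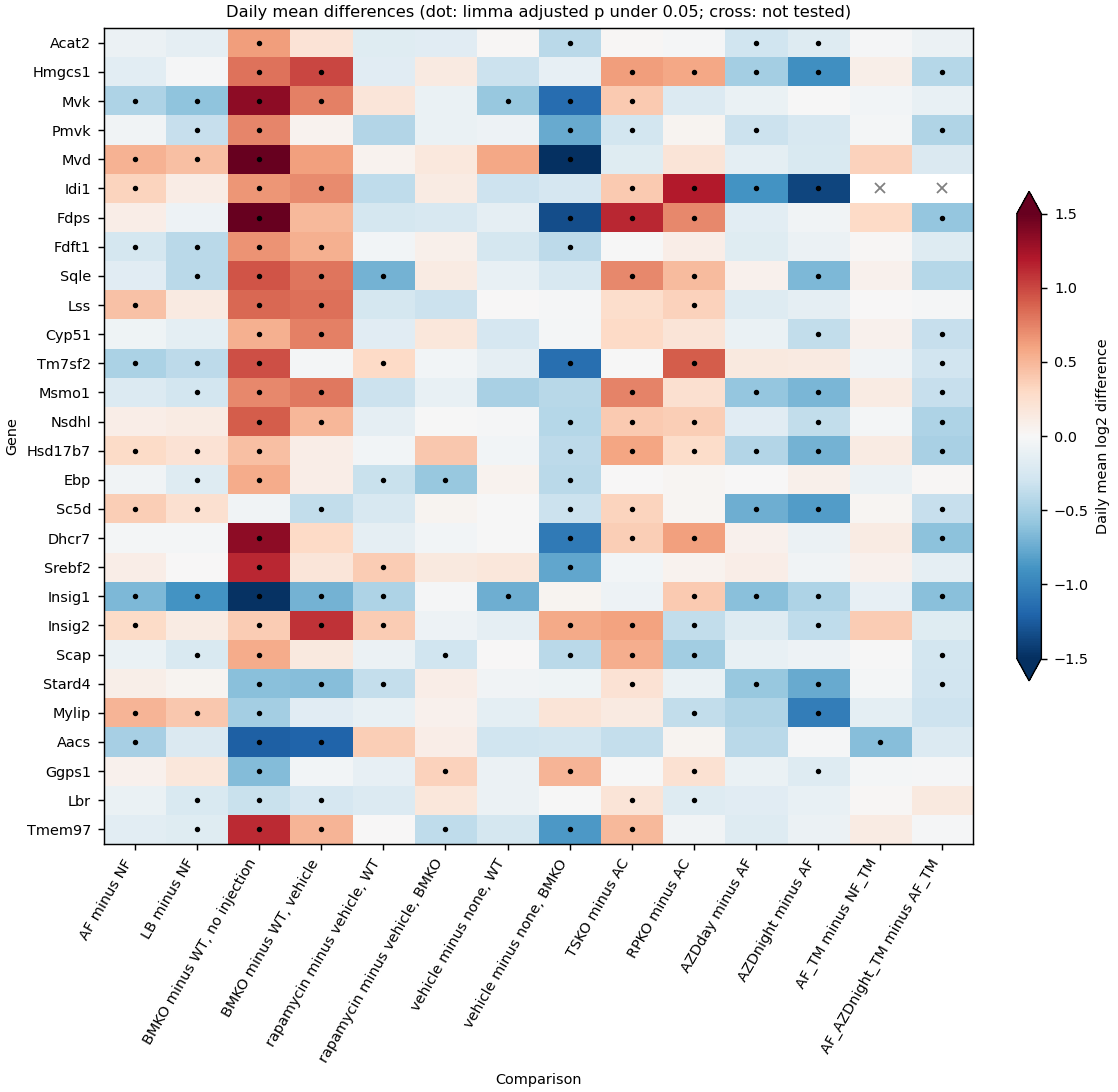
Log2 difference of the daily mean of each gene (rows) in each comparison (columns, first-named arm minus second); a dot marks an adjusted p under 0.05 and a cross a gene not tested. Mvd (2.87) and Insig1 (-1.48) lie at opposite ends in Bmal1 knockout minus wild-type livers without injection, and every dot in the AZD8055 columns is on a negative value.

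Rapamycin was followed by lower Sqle and Insig1 in wild-type livers. In wild-type livers 3 members were higher and 4 lower with rapamycin than with vehicle, where 9.76% of genes were called higher and 8.73% lower. The members' share called higher was near that of all genes. The member median was -0.15. Sqle had 9.37, 6.94 and 8.93 RPM at ZT 2 with rapamycin, against 31.4, 42.7 and 34.8 RPM with vehicle. Those groups did not overlap, and its daily mean differed by -0.71 ± 0.23 (adjusted p = 0.0189). Insig1 (-0.46 ± 0.13, adjusted p = 0.00656), Stard4 (-0.36) and Ebp (-0.34) were lower, and Insig2 (0.38), Srebf2 (0.38) and Tm7sf2 (0.29) were higher. The 7 calls were 2 without replicate 2 and 3 without replicate 3. Markers of several cell types were lower with rapamycin too, for 3 of 6 hepatocyte markers (34508 to 71593 RPM with rapamycin, against 59860 to 105168 RPM with vehicle), 3 of 6 endothelial (149.5 to 223.1 RPM, against 172.9 to 257.6 RPM), 3 of 3 tested leukocyte (0.0 to 14.1 RPM, against 6.3 to 19.4 RPM) and 2 of 7 Kupffer cell markers (67.7 to 451.8 RPM, against 134.5 to 286.0 RPM). None was higher, and their part in the result was not tested.

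Rhythms within the wild-type arm with rapamycin were called for 2 members, Insig2 and Stard4, against 5.1% of genes, and for 18 with vehicle. Without replicate 2 these were 1 and 5. The change itself was not called for any member: limma and edgeR called 0, limma called 0% of genes, and 8 members had an unadjusted p under 0.05. The counts of 18 and 2 are therefore not shown to differ. The median amplitude was 0.25 with rapamycin and 0.52 with vehicle.

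In Bmal1 knockout livers 1 member was higher and 3 lower with rapamycin than with vehicle, where 6.32% of genes were called higher and 5.54% lower. Ebp differed by -0.57 ± 0.11 (adjusted p = 0.000203), Tmem97 by -0.38 and Scap by -0.30, and Ggps1 was higher by 0.35. The 4 calls were 1 without replicate 1 and 2 without either of the others. For the rhythm change limma called 0, where 0.322% of genes were called, with 4 members at an unadjusted p under 0.05 and 0 in edgeR. Within the arm with rapamycin limma called 0 rhythmic members, where 0.274% of genes were called, with 4 at an unadjusted p under 0.05 and 0 in edgeR.

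The effect of rapamycin on the daily mean was itself compared between the genotypes. Rapamycin minus vehicle, in Bmal1 knockout minus wild-type livers, was called for 3 members, where 7.85% of genes were called higher and 6.39% lower. Lbr (0.38 ± 0.12, adjusted p = 0.0206) and Ggps1 (0.47 ± 0.15, adjusted p = 0.0223) had a higher effect in the knockout and Insig2 (-0.46 ± 0.16, adjusted p = 0.0455) a lower one. Without replicate 1 the 3 were 0.

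Vehicle-injected wild-type livers had lower Insig1 (-0.73 ± 0.13, adjusted p = 6.63e-06) and lower Mvk (-0.56, adjusted p = 0.0155) than uninjected ones. The uninjected libraries are the night-fed ones of the feeding comparisons, so a trait of that group cannot be told from an effect of injection. These 2 were the only calls among the 28 members, where 15.4% of genes were called higher and 11.8% lower. The members' share was below that of all genes. Without replicate 2 the count was 1. No member was called higher by limma, 1 was at an unadjusted p under 0.05 and 1 in edgeR. The rhythm was called for 0 members and 0% of genes, with 11 members at an unadjusted p under 0.05 and 0 in edgeR.

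In Bmal1 knockout livers vehicle injection was followed by a broad fall. Over the day 15 members were lower and 2 higher than in uninjected knockout livers, where 29.1% of genes were called lower and 31.4% higher. Mvd differed by -1.68 ± 0.24, Fdps by -1.33, Mvk by -1.15, Tm7sf2 by -1.13 ± 0.09 (adjusted p = 3.08e-17), Dhcr7 by -1.06, Tmem97 by -0.87 and Srebf2 by -0.78. Insig2 (0.56) and Ggps1 (0.51) were higher. The 17 calls were 11 without replicate 2. Markers of other cells moved too, with 4 of 7 Kupffer cell, 5 of 6 endothelial, 3 of 5 stellate cell and 3 of 3 leukocyte markers higher after vehicle, and their part in the result was not tested. The rhythm was called for 0 members and 0% of genes, with 2 members at an unadjusted p under 0.05 and 0 in edgeR.

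Outside the 28 genes, the pattern most like their mean over the 78 arm-by-time means belonged to Mmab, a cobalamin adenosyltransferase whose gene is the neighbour of Mvk, with a Pearson r of 0.860. Rdh11, a retinol dehydrogenase, and Gm43738, which overlaps the 3′ end of Fdps and may share its reads, followed at 0.814 each. Rps23rg1 (0.773), Cutal (0.749), Nr6a1 (0.740), BC004004 (0.740), Alkbh7 (0.727), Coq8a (0.721) and Psen2 (0.719) completed the first 10. These are correlations over means that share libraries and carry no test.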

How the data were processed

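Livers were profiled by QuantSeq 3′ mRNA sequencing, and the submitters' processing notes name STAR 2.7.3a and the builds mm10 and GRCm38.p6. How reads were counted, on which annotation and with what scaling is not given in the sources used here. Deposited tables hold a scaled signal, not raw counts: each value is a whole number of reads divided by a factor of its library. Those reads were recovered from the step between low values, with 100% of values whole within 0.01 read outside the RPKO arm and 99.9135% in all libraries of the first table. In the RPKO arm 197 genes, none of them a member, were off the step and were left out of fits that include it. Because the deposited values are scaled, limma 3.58.1 with a trend (R 4.3.3) was the main test and edgeR 4.0.16 on the recovered reads an alternative.

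Values were log2(RPM + 0.5) after TMM scaling, for genes averaging 1 RPM or more (12412 in the first table, 12266 with RPKO, 12261 in the second). A fold on this scale understates changes of low genes. The arms of an experiment shared 1 estimate of the spread, and the 2 tables were never tested against each other. Rhythms were 24 h cosine and sine terms, tested by F, within an arm fitted alone or between arms. All p-values are 2-sided and Benjamini-Hochberg adjusted over all genes tested. Up to 6 called members by smallest p were named per comparison with any of opposite direction, and the 5 genes Sqle, Hmgcs1, Insig1, Insig2 and Srebf2 had their levels drawn on first. The remaining names and values were added after they were seen. The members and lists were chosen with earlier results of these data known. Fits were tested on simulated data. Replicate numbers were not treated as pairs in the main fits. Correlations of same-numbered deviations between arms ran from -0.42 to 0.50. Their median was highest for rapamycin minus vehicle in Bmal1 knockout livers (0.164, with 11 of 18 over 0.1). Free minus night feeding came next (0.109, with 10 of 18 over 0.1). Within an arm, across times, same-numbered libraries had median correlations from -0.00107 to 0.477, highest in vehicle-injected Bmal1 knockout livers. Alternatives were DESeq2 1.42.0 size factors, no filter, a pseudocount of 2, a replicate block, edgeR, leaving out each replicate, and leaving out the 3 libraries under 3000000 reads.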

Additional observations from a re-analysis of the deposited data

Results flagged for a closer look

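Insig1 in the tunicamycin arms had a library far from the other 3 of its group at 3 points, each time replicate 2. In arrhythmically fed livers at ZT 22 the libraries had 62.1, 142, 56.0 and 61.7 RPM, and the gap from 141.761 RPM to the nearest was 0.929 of the range. In night-fed livers at ZT 16 they had 74.9, 203, 56.9 and 55.2 RPM, with a gap share of 0.867 for the library at 202.87 RPM, and at ZT 22 they had 84.4, 210, 91.3 and 85.6 RPM, with a gap share of 0.945 for the library at 209.775 RPM. Chance alone marks about 1 in 20 groups, and 60 groups were examined, so the count of 3 is no larger than that rate gives. The rate takes the groups as independent. It cannot say whether the same gene and replicate number at all 3 points is chance, and this was not tested. The Insig1 differences given above for the tunicamycin arms include these libraries.

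The effect of rapamycin on the daily mean differed between Bmal1 knockout and wild-type livers for 3 of 28 members, where 7.85% of all genes had a higher and 6.39% a lower effect, so the members' share is no larger than the background. Rapamycin minus vehicle, in knockout minus wild-type livers, was -0.4607 for Insig2 (adjusted p = 0.0455), 0.4721 for Ggps1 (adjusted p = 0.0223) and 0.3764 for Lbr (adjusted p = 0.0206), by the interaction term of limma. The 3 calls were 0 without replicate 1, 1 in edgeR, and 5 without the libraries under 3000000 reads.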

How the results depend on the processing

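The called members of smallest p in each test gave 208 results, recomputed under 1731 alternative values. Of these values, 1590 kept their direction and their call, 141 kept the direction and lost the call, and 0 reversed. The 208 include 58 amplitudes and 22 rhythm changes, whose sizes are never negative. Those could not reverse, and a moved peak was not looked for. Of 438 alternative counts of members, 363 lay within 1.5 times the count given and 75 did not. Size factors in place of TMM shifted the median of all genes by at most 0.079. Limits: leaving out 1 of 3 libraries per time leaves 2 per time, with fewer degrees of freedom, and the cause of each move was not tested. Low genes such as Idi1 and Mylip rest on few reads, and 3 libraries are shallow.

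Counts that moved under other settings follow. Arrhythmically fed minus freely fed livers had 1 changed daily mean and 1 changed rhythm with the replicate block. Bmal1 knockout minus wild-type livers with vehicle had 2 changed rhythms in edgeR. The rapamycin effect that differed between genotypes had 5 calls with the replicate block, 1 in edgeR and 5 without the shallow libraries. Vehicle-injected minus uninjected wild-type livers had 4 changed daily means with size factors, 5 with the replicate block and 4 without the shallow libraries. Arrhythmically minus night-fed livers with tunicamycin had 0 changed daily means without the filter. Rhythmic members numbered 17 in uninjected Bmal1 knockout livers without the shallow libraries, and with the replicate block 14 in vehicle-injected and 1 in rapamycin-treated ones. The main fits used no replicate block, although same-numbered vehicle-injected Bmal1 knockout libraries correlated across times at a median r of 0.477 (lowest 0.0729).

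Leaving out each replicate in turn gave these ranges of members with a changed daily mean: 4 to 12 for arrhythmic minus night feeding, 6 to 12 for free minus night feeding, 0 to 1 for arrhythmic minus free feeding, 23 to 26 and 12 to 13 for Bmal1 knockout minus wild type without injection and with vehicle, 2 to 7 for rapamycin minus vehicle in wild type and 1 to 2 in the knockout, 0 to 3 for their difference, 1 to 3 for vehicle minus none in wild type and 11 to 18 in the knockout, 9 to 16 for TSKO and 10 to 15 for RPKO minus Albumin-Cre, 14 to 19 for RPKO minus TSKO, 8 to 10 for AZD8055 at dawn and 9 to 11 for AZD8055 at dusk, and, with tunicamycin, 0 to 0 for arrhythmic minus night feeding and 2 to 12 for adding AZD8055. Changed rhythms ranged over 2 to 17 for arrhythmic and 0 to 2 for free minus night feeding, 1 to 6 and 1 to 3 for Bmal1 knockout without injection and with vehicle, 4 to 17 for AZD8055 at dawn, 1 to 2 for AZD8055 at dusk, and 7 to 12 for arrhythmic minus night feeding with tunicamycin. Pairs of a member and a time ranged over 4 to 9 for TSKO, 6 to 17 for RPKO, 15 to 25 for AZD8055 at dawn and 9 to 20 for AZD8055 at dusk.

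Members rhythmic within an arm ranged over 4 to 20 with AZD8055 at dawn, 10 to 17 with AZD8055 at dusk, 3 to 4 under arrhythmic, 1 to 13 under free and 10 to 18 under night feeding, 1 to 3 and 5 to 12 in wild type with rapamycin and with vehicle, 0 to 0, 0 to 10 and 0 to 17 in the Bmal1 knockout with rapamycin, with vehicle and without injection, 5 to 15 in RPKO, 11 to 19 in TSKO and 14 to 18 in Albumin-Cre livers, and, with tunicamycin, 6 to 10 with AZD8055, 7 to 12 under arrhythmic and 7 to 16 under night feeding.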
